A study of Mus musculus with 6 samples.

Results

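The Gadd45 stress sensors, 4 inhibitors of cyclin-dependent kinases and the p53 axis were examined in whole thymus of miR-181d transgenic and wild type mice. The set holds 10 listed genes: Gadd45a, Gadd45b, Gadd45g, Cdkn1a, Cdkn1b, Cdkn2c, Cdkn2d, Trp53, Mdm2 and Ccng1. A probe was taken when the array's annotation lists it under 1 of these symbols, whatever its signal. This gave 22 probes of 9 genes, out of 45281 probes and 19057 genes on the array. No probe is listed under Trp53, so p53's own transcript was not measured here. Of the 22 probes, 18 were detected on at least 3 of the 6 arrays and were tested.

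Thymus RNA of 3 Tg-38 mice was set against that of 3 wild type C57BL/6 mice, and each mouse was hybridised to its own Illumina MouseWG-6 v2 array. Tg-38 is a single transgenic line on the C57BL/6 background in which the VA-hCD2 cassette drives the primary transcript of miR-181d in thymocytes and peripheral T cells, so the transgene is not limited to 1 stage of thymocyte. The study's methods give an age of 5 to 8 weeks for its mice, and the labels name no treatment for either group. RNA came from the whole organ, although the labels also give the cell type as thymocyte.

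Gadd45a, Gadd45b and Gadd45g are small nuclear proteins induced by DNA damage and other stress. They bind the MTK1 (Map3k4) kinase upstream of p38 and JNK, as well as PCNA and the Cdk1 and cyclin B1 complex. The Cip/Kip proteins p21 (Cdkn1a) and p27 (Cdkn1b) inhibit a broad range of cyclin and Cdk complexes, while the Ink4 proteins p18 (Cdkn2c) and p19 (Cdkn2d) bind Cdk4 and Cdk6. The transcription factor p53 activates Cdkn1a, Gadd45a, Ccng1 and Mdm2, and Mdm2 is the ubiquitin ligase that degrades p53. In the thymus, dividing CD4-CD8- cells give way to largely quiescent CD4+CD8+ (DP) cells, and these genes act at the exit from the cell cycle and in the response to broken DNA.

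The agent that separates the groups is 1 member of a microRNA family. The 4 mature mouse sequences from RefSeq (build GRCm38.p6) are printed to show what Tg-38 thymocytes over-express beside its relatives, with the seed, bases 2 to 8, in capitals.

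mmu-miR-181d-5p: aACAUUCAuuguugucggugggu
mmu-miR-181b-5p: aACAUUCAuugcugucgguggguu
mmu-miR-181a-5p: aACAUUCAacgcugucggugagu
mmu-miR-181c-5p: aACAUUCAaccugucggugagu

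All 4 carry the seed ACAUUCA. Over the positions they share, miR-181d differs from miR-181b at 1 base and from miR-181a at 4 bases. The endogenous miR-181d lies at chr8:84178759-84178781 on the minus strand. Whether the transcripts of the 10 genes carry matches to this seed was not analysed here.

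The promoters of Gadd45a, Gadd45g and Cdkn1a are printed because Gadd45a holds the called probe, Gadd45g is its relative with a value on the other side of 0, and Cdkn1a is the p53-induced inhibitor. Each is the 250 bases before an annotated start (RefSeq, GRCm38.p6), read 5′ to 3′ on the gene's own strand. The capitals mark matches to the motifs described after them. Gadd45a is at chr6:67037408-67037657 (minus strand), Gadd45g at chr13:51846425-51846674 (plus strand) and Cdkn1a at chr17:29090729-29090978 (plus strand).

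Gadd45a: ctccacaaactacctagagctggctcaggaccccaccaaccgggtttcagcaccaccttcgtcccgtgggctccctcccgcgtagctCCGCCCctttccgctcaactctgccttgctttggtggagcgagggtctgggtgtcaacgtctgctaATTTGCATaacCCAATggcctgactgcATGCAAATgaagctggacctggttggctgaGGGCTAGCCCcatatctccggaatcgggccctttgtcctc
Gadd45g: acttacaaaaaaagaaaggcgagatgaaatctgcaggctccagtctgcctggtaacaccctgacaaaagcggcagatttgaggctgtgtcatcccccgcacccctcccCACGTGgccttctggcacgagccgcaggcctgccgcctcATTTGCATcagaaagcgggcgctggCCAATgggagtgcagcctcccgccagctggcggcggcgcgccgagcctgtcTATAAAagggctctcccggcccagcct
Cdkn1a: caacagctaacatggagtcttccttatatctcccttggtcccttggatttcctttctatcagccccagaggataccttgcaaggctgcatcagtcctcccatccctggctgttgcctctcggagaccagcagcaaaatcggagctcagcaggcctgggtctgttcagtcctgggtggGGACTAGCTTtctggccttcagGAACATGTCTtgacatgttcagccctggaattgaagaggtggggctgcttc

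The motifs searched on both strands were the CCAAT box, the GC box (GGGCGG), the TATA box (TATAAA), the octamer (ATGCAAAT), the E-box (CACGTG), the Foxo core (GTAAACA), the cyclic AMP element core (TGACGTCA) and the p53 half-site by its standard consensus. The Gadd45a promoter held 2 octamers, with first bases 97 and 70 before the start, beside 1 CCAAT box at 86, 1 GC box at 163 and 1 p53 half-site at 40. The octamer was found in 1.6% of the 32851 mouse promoters listed. Gadd45g held 1 octamer at 103, 1 CCAAT box at 78, 1 TATA box at 27 and 1 E-box at 142. For Cdkn1a 2 starts are listed, and the window printed lies before the start nearest the gene's annotated 5′ end. That window held 2 p53 half-sites, at 73 and 51, and no other motif of the 8. The window before the other Cdkn1a start is not described here. Cdkn2c also has 2 listed starts, and its window was chosen in the same way. Among the 10 genes, 8 promoters held a CCAAT box, against 33.8% of all promoters, and 6 held a p53 half-site, against 7.13%. A GC box was present in 6 (32.7% of all promoters), a TATA box in 3 (12.4%), an E-box in 2 (6.02%), a Foxo core in 1 (3.17%) and a cyclic AMP core in 0 (1.55%). A match is a description of letters in this window, and binding was not measured.

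The arrays were of similar quality. Between 17972 and 18464 probes were detected on the Tg-38 arrays and between 17674 and 18526 on the wild type arrays, at a detection p under 0.05. The median scanner signal was 123 to 129 on Tg-38 arrays and 129 to 140.7 on wild type arrays. Every pair of arrays correlated at 0.9909 or more. The first principal component (39.4% of the variance) parted the groups, and wild type replicate 2 lay far from the remaining 5 arrays along the second (21.7%). DP thymocyte markers were present, with Cd4, Cd8b1 and Rag1 detected on all 6 arrays, while no probe of Cd8a was detected on at least 3 arrays.

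The signals given per array are the scanner's, in linear units that include the array's background. For Gadd45b probe 2, signals of 118.8 on Tg-38 replicate 1 and 119.5 on wild type replicate 3 each had a detection p of 0.439. The changes are on the log2 scale after background correction and quantile normalization. A log2 change is Tg-38 minus wild type throughout, with its standard error (SE) from limma. A probe was called when limma's p, adjusted by Benjamini-Hochberg over 18352 probes, was under 0.05. In whole thymus, fewer cells of a type and less RNA per cell cannot be told apart in any of these values.

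By that rule 1 of the 18 tested probes was called, as lower in Tg-38, and 0 as higher. Of all 18352 probes tested, 1.1% were called, 0.801% as higher and 0.3% as lower. With the p left unadjusted, a p under 0.05 was reached by 2 member probes as higher and 6 as lower, where all probes gave 8.55% and 8.48%. The normalized values of the 2 groups did not overlap on 9 member probes, against 22.6% of all probes. Of these, 3 were higher and 6 lower in Tg-38, where all probes gave 11.4% and 11.2%. The log2 change was below 0 on 13 of the 18 probes, against 51.3% of all probes, and its median was -0.14, against -0.01. These counts describe the set, which shares probes of 1 gene, and no test of the set was made.

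**Figure D1:**
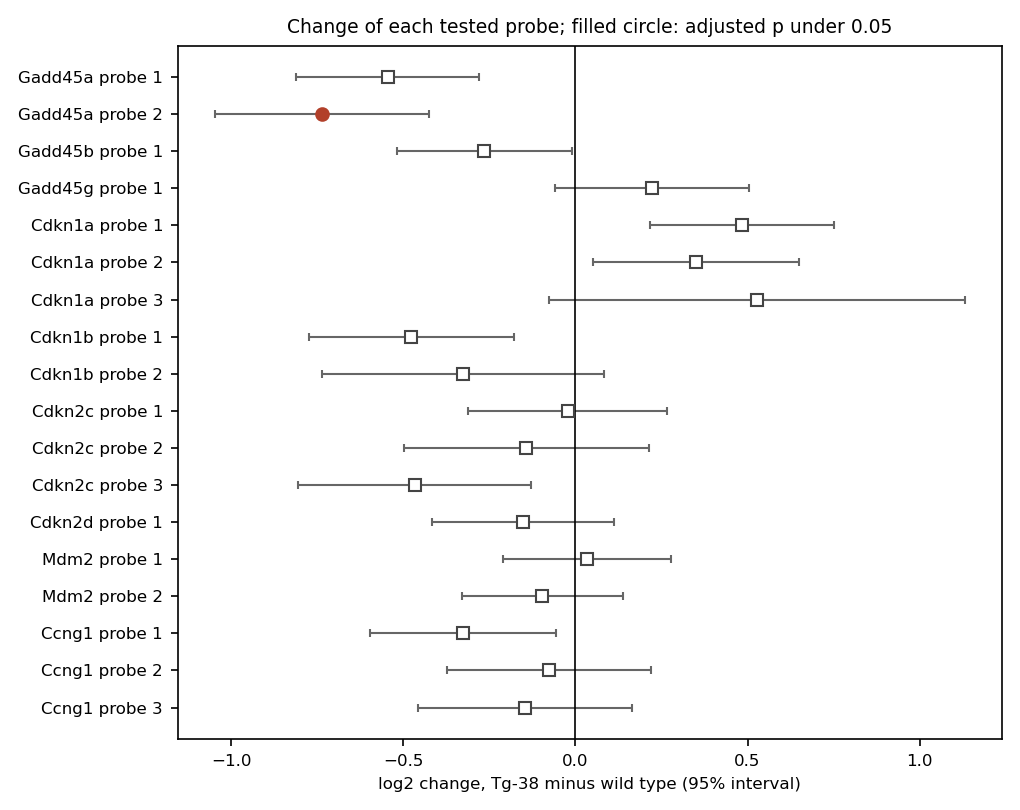
Log2 change (Tg-38 minus wild type, horizontal axis) of the 18 tested probes, grouped by gene, with 95% intervals from limma across 3 mice per group. The 2 Gadd45a probes lie at -0.55 and -0.74, the 3 Cdkn1a probes between 0.35 and 0.53, and only the second Gadd45a probe passed the adjusted threshold.

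Gadd45a fell in Tg-38 thymus by 1 of its 2 probes. The brighter probe, probe 1, had scanner signals of 460.8, 397.7 and 424.2 in Tg-38 mice, against 809.9, 602.2 and 618.9 in wild type mice. The groups averaged 427.6 ± 31.7 in Tg-38 and 677.0 ± 115.4 in wild type (SD, n = 3 each). All 3 Tg-38 arrays were below all 3 wild type arrays. Its log2 change was -0.55 (SE 0.12, 95% interval -0.81 to -0.28), with an adjusted p of 0.069 in limma, so probe 1 was not called.

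Probe 2 of Gadd45a had signals of 255.9, 274.8 and 247.6 in Tg-38 mice, against 509, 405.3 and 342.8 in wild type mice. Again the groups did not overlap, and the wild type mice spread more widely. After normalization its log2 values were 7.23, 7.55 and 7.45 in Tg-38 and 8.32, 8.16 and 7.95 in wild type, still without overlap. The log2 change was -0.74 (SE 0.14, 95% interval -1.05 to -0.42), which is 1.67-fold lower in Tg-38, with an adjusted p of 0.0488 in limma. This p lies close to the threshold. Leaving out any 1 of the 6 arrays ended the call, with adjusted p from 0.0665 (without wild type replicate 2) to 0.17 (without Tg-38 replicate 1) and log2 changes from -0.83 to -0.65. Over 17 alternative analyses the log2 change of probe 2 kept its sign and ran from -0.89 to -0.50, and it was called in 8 of them. Probe 1 also kept its sign in all 17, from -0.73 to -0.44, and was called in 7.

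Gadd45b, induced in T cells by cytokines and antigen receptor signals, had 1 tested probe. Its signals were 184.6, 179 and 170 in Tg-38 mice, against 245.2, 206.7 and 190.3 in wild type mice. The groups did not overlap, although the nearest mice were close. The log2 change was -0.26 (SE 0.11) with an adjusted p of 0.276 in limma, which is not a call. The second Gadd45b probe was not detected on any array.

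Gadd45g, a cytokine-responsive family member, gave 353.1, 333.7 and 340.4 in Tg-38 mice, against 418.5, 350.4 and 292.4 in wild type mice. On the scanner scale the Tg-38 values fell inside the wild type range. After normalization the 3 Tg-38 values were above the 3 wild type values, with a log2 change of 0.22 (SE 0.12, 95% interval -0.06 to 0.50) and an adjusted p of 0.407. Without normalization between arrays the change was -0.03, where the median of all probes was -0.16, and measured from that median it was 0.13. The other Gadd45g probe was not detected on any array.

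The family members were also set against each other within each mouse, as the difference between the log2 values of 2 probes. In all, 17 such pairs were compared, within genes and within families, by an exact two-sided permutation test over mice, which cannot go below 0.1 with 3 against 3. The log2 change of Gadd45a probe 1 minus that of Gadd45g was -0.77 (SE 0.14), and that of Gadd45b minus Gadd45g was -0.49 (SE 0.06). Between Gadd45a probe 1 and Gadd45b the difference was -0.28 (SE 0.12). In each of these 3 pairs the 3 Tg-38 mice were below the 3 wild type mice, with the smallest p the exact test allows (0.1, adjusted 0.283 over the 17 pairs). The 2 Gadd45a probes differed in change by 0.19 (SE 0.19, exact p = 0.2).

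**Figure D2:**
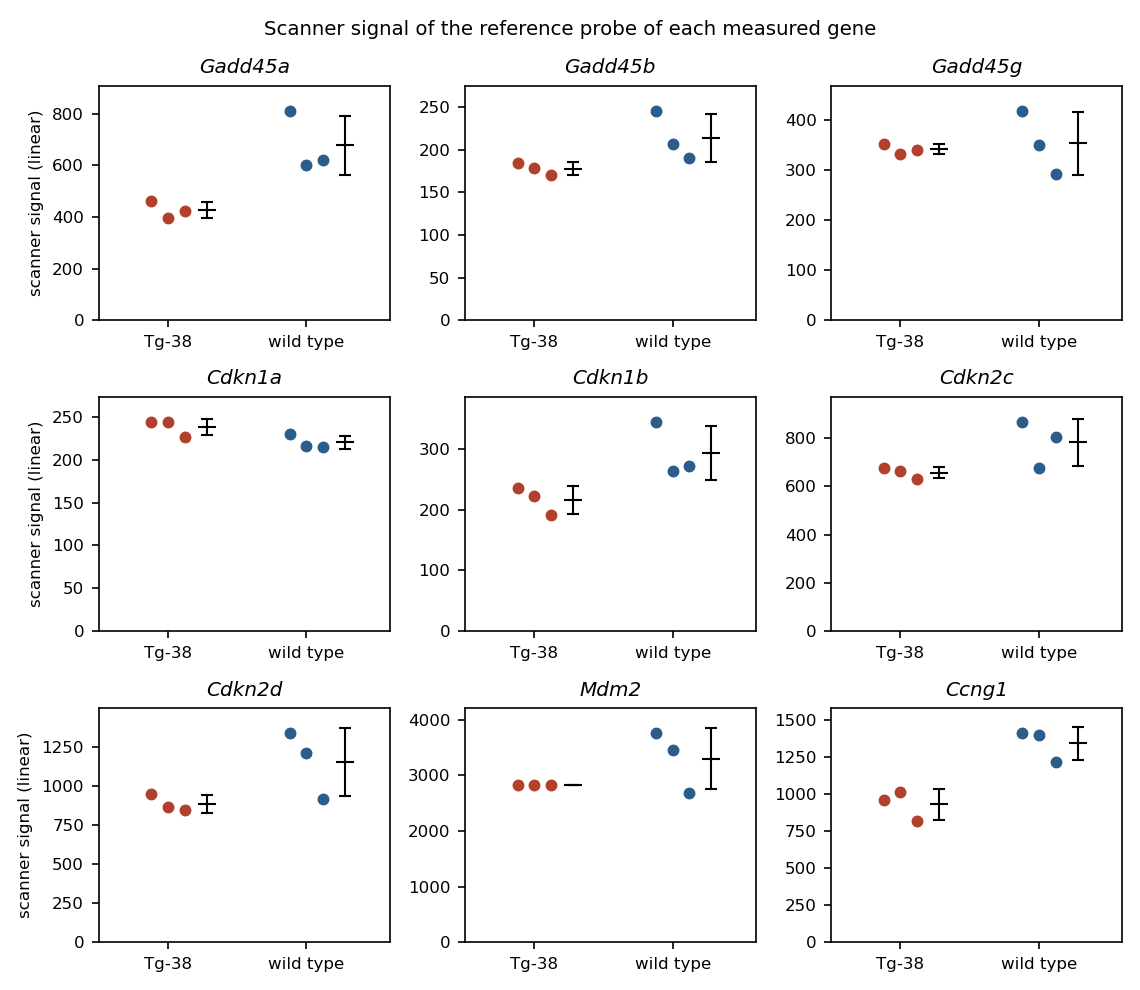
Scanner signal (linear units, vertical axis from 0) of the brightest tested probe of each of the 9 genes, with 1 point per mouse, Tg-38 left of wild type, and a bar at the mean with its SD (n = 3 each). Gadd45a, Gadd45b, Cdkn1b and Ccng1 show Tg-38 mice below all wild type mice, while the values of Gadd45g, Cdkn1a, Mdm2, Cdkn2c and Cdkn2d overlap.

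Cdkn1a and Cdkn1b had log2 changes on opposite sides of 0, and neither passed the adjusted threshold. For Cdkn1a, the p53-induced inhibitor p21, probe 1 had signals of 243.6, 243.4 and 226.6 in Tg-38 mice, against 229.2, 215.7 and 215.1 in wild type mice. The scanner signals overlapped by 1 mouse in each group. The normalized log2 values were 7.10, 7.27 and 7.23 in Tg-38 and 6.56, 6.73 and 6.85 in wild type, without overlap. The change was 0.48 (SE 0.12, 95% interval 0.22 to 0.75), with an unadjusted p of 0.0027 and an adjusted p of 0.0948 in limma. Over the 17 alternatives it ran from 0.11, on unnormalized signals (0.27 from the median of all probes), to 0.55, and was called in 0 of them.

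The other Cdkn1a probes were dimmer. Probe 2 read 169.8, 166.8 and 170.4 in Tg-38 mice, against 182.2, 169.4 and 153.4 in wild type mice, with a log2 change of 0.35 (SE 0.13) and an adjusted p of 0.228. Probe 3 read 172.7, 134 and 137.4 in Tg-38 mice, against 139.7, 130.8 and 147.4 in wild type mice, and was detected on 2 Tg-38 arrays and 1 wild type array. Its change of 0.53 (SE 0.27, adjusted p 0.36) came with overlapping groups. All 3 probes thus had positive changes after normalization, and on unnormalized signals, measured from the median of all probes, the changes were 0.27, 0.17 and 0.24.

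For Cdkn1b, whose product p27 holds resting T cells out of the cycle, probe 1 had signals of 235.9, 222.1 and 190.6 in Tg-38 mice, against 343.5, 263.4 and 271.8 in wild type mice. Every Tg-38 mouse was below every wild type mouse. The log2 change was -0.48 (SE 0.13, 95% interval -0.77 to -0.18), with an unadjusted p of 0.00551 and an adjusted p of 0.123. It kept its sign in the 17 alternatives, from -0.62 to -0.27, and was called in 0 of them. Probe 2, detected on 1 Tg-38 array and all 3 wild type arrays, read 124.2, 139.5 and 131.5 in Tg-38 mice, against 170.7, 146.4 and 141.3 in wild type mice. Its log2 change was -0.33 (SE 0.18, adjusted p 0.403). Probe 3 was not detected on any array.

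The direct contrast of Cdkn1a with Cdkn1b, by probe 1 of each, gave a difference in log2 change of 0.96 (SE 0.19). The difference was higher in all 3 Tg-38 mice than in all 3 wild type mice, with an exact p of 0.1 (adjusted 0.283 over the 17 pairs), the smallest possible.

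The Ink4 inhibitors showed no called probe. Cdkn2c (p18) had signals of 676.5, 661.2 and 630.5 in Tg-38 mice, against 864.3, 674.4 and 804 in wild type mice for its brightest probe. Its log2 change was -0.02 (95% interval -0.31 to 0.27) and the groups overlapped. Probe 2 had a change of -0.14 (SE 0.16, adjusted p 0.692), also with overlap. Probe 3, near the detection limit, read 137.9, 148.6 and 142 in Tg-38 mice, against 185.2, 170.1 and 159.9 in wild type mice, with a log2 change of -0.47 (SE 0.15, adjusted p 0.17). The log2 change of probe 1 was 0.45 above that of probe 3 (SE 0.20), with an exact p of 0.2. Cdkn2d (p19), measured by a single probe, had 947.6, 862.5 and 843.2 in Tg-38 mice, against 1337.2, 1213.2 and 913.1 in wild type mice. The groups overlapped, and the log2 change was -0.15 (SE 0.12, 95% interval -0.42 to 0.11).

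Mdm2, the ligase that limits p53 and is itself activated by it, was among the bright members. Its first probe read 2822.8, 2820.7 and 2825.9 in Tg-38 mice, against 3758.8, 3450.2 and 2690 in wild type mice. The Tg-38 mice were almost equal and lay inside the wild type range. The log2 change was 0.03 (SE 0.11), and its 95% interval of -0.21 to 0.28 bounds the size of a change these mice allow. Probe 2 had a log2 change of -0.10 (SE 0.10, 95% interval -0.33 to 0.14). Probe 3 was detected on 1 Tg-38 array only and was not tested.

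Ccng1 encodes cyclin G1, a p53-induced cyclin that recruits the phosphatase PP2A to Mdm2. Its brightest probe had signals of 962.4, 1015.3 and 815.2 in Tg-38 mice, against 1409.8, 1396.3 and 1213.7 in wild type mice. The groups did not overlap. The log2 change was -0.33 (SE 0.12, 95% interval -0.60 to -0.06), with an unadjusted p of 0.0225 and an adjusted p of 0.213, and it was called only without normalization between arrays (log2 change -0.53, adjusted p 0.0251). The other 2 probes had overlapping groups and changes of -0.08 (SE 0.13) and -0.15 (SE 0.14). Probe 1 had a lower log2 change than probe 2 (difference -0.25, SE 0.08, exact p = 0.1).

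**Figure D3:**
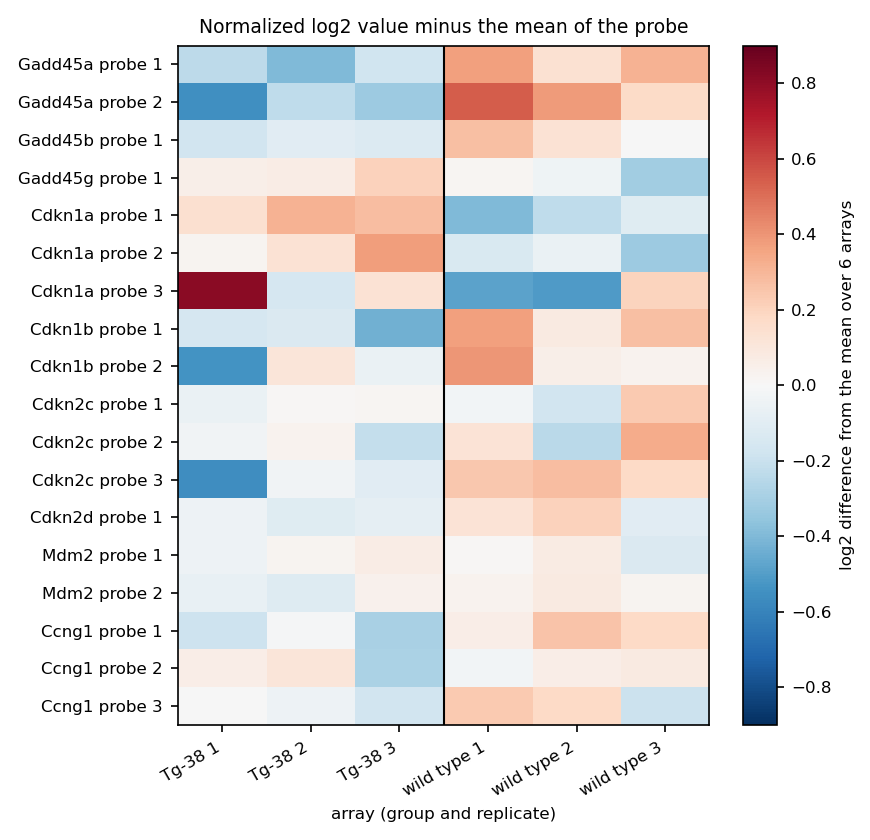
Normalized log2 value of each of the 18 tested probes (rows) on each of the 6 arrays (columns, Tg-38 left of wild type), centred on the probe's mean over all arrays, with a colour scale in log2 units. Both Gadd45a probes and Cdkn1b probe 1 are below their mean on every Tg-38 array, and Cdkn1a probes 1 and 2 are above theirs.

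Array brightness moved with several of these values. Wild type replicate 1 gave the highest scanner signal on 16 of the 18 tested probes. After normalization it was highest on 6 of them, and wild type replicate 2 on 5. The median SD within groups was 0.15 on the log2 scale for the 18 probes and 0.16 for all probes tested. The median change of all probes was -0.01 under quantile normalization, -0.14 under median scaling and -0.16 without normalization. Measured from that median, Gadd45a probe 2 was at -0.74 under median scaling and at -0.51 without normalization. Cdkn1a probe 1, measured in the same way, was at 0.50 and 0.27, and Cdkn1b probe 1 at -0.47 and -0.27.

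The genes around the members were counted in 7 pathway lists, using the brightest tested probe of each gene. No gene of any list was called in this way, where 1.05% of all 9782 genes were called as higher and 0.235% as lower. The unadjusted p was under 0.05, as higher, for 10.6% of all genes and, as lower, for 6.94%, and the same limit applies to each list. The median log2 change of all genes was 0.02.

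Of 40 p53 target genes, 28 were tested. By the unadjusted p, 8 passed 0.05, of which 4 were higher and 4 lower, and the median log2 change was -0.06. This list holds 4 members, and without them 3 of 24 genes were higher and 2 lower. The higher ones were Cdkn1a, Dram1 (a lysosomal membrane protein of autophagy), the Polo-like kinase Plk3 and Ddb2. Dram1 had a log2 change of 0.60 (SE 0.16, adjusted p 0.121), and was called only without wild type replicate 2 (0.77, adjusted p 0.0385). Plk3 had 0.40 (adjusted p 0.132) and Ddb2, a sensor of ultraviolet damage, 0.29 (adjusted p 0.269). The lower ones were Gadd45a, Ccng1, Bcl6 and Phlda3. Bcl6, a transcriptional repressor, had a log2 change of -0.33 (adjusted p 0.197) and Phlda3, an inhibitor of Akt, -0.36 (adjusted p 0.22). Known targets of p53 thus lay on both sides of 0.

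**Figure D4:**
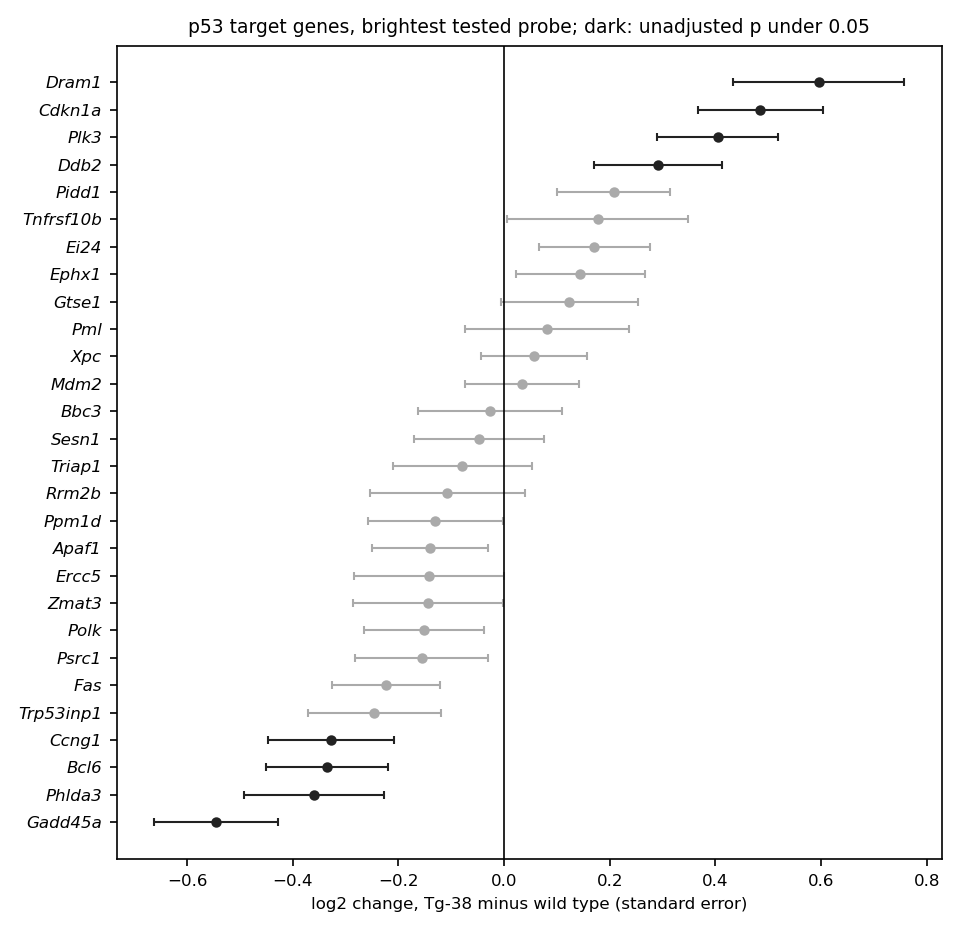
Log2 change (Tg-38 minus wild type, horizontal axis) of the 28 tested p53 target genes by the brightest tested probe of each, with bars of 1 SE from limma and dark points where the unadjusted p was under 0.05. Dram1 is at 0.60 and Gadd45a at -0.55 at the ends of the order, and 16 of the 28 genes lie below 0.

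Among 31 regulators of p53, 25 were tested, of which 2 were higher and 0 lower by the unadjusted p, with a median of 0.02. Atm, the kinase that signals DNA breaks to p53, had signals of 1569.9, 1276.6 and 1300.3 in Tg-38 mice, against 1413.4, 1112.9 and 1138.1 in wild type mice. These overlapped on the scanner scale and did not after normalization, with a log2 change of 0.46 (SE 0.12) and an adjusted p of 0.105. Atm passed the threshold in 4 of the 17 alternatives. Trp63, the p53 relative of thymic epithelium, had 0.77 (SE 0.26, adjusted p 0.194), with overlapping groups, and was called only without wild type replicate 2 (1.09, adjusted p 0.0312). The acetyltransferase Crebbp had -0.27 (SE 0.13, adjusted p 0.325).

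Of 16 Gadd45 partners, 10 were tested, 0 had an unadjusted p under 0.05 in limma, and the median was 0.01. No probe of Map3k4, the kinase that Gadd45 proteins bind directly, passed the detection filter. The 3 genes with the smallest p were Gadd45gip1 (-0.13), the p38 kinase kinase Map2k3 (-0.12) and the replication clamp Pcna (-0.29), with adjusted p between 0.526 and 0.679.

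All 7 Cdk inhibitor genes, 4 of them members, were tested. By the unadjusted p, Cdkn1a, Cdkn1c and Cdkn2b were higher (3 genes) and Cdkn1b lower (1 gene), and the median was -0.02. Cdkn1c, the imprinted Cip/Kip inhibitor p57, had signals of 677.8, 731 and 780.7 in Tg-38 mice, against 659.8, 531.7 and 592.4 in wild type mice. No Tg-38 mouse was as low as a wild type mouse. Its log2 change was 0.61 (SE 0.14) with an adjusted p of 0.0867, and it passed the threshold under 4 of the 17 alternatives. Cdkn2b (p15) was detected on 3 Tg-38 arrays and 0 wild type arrays. It was thus tested, and counted here, only through the group where it was higher. Its dim signals of 158.5, 135.4 and 135.1 in Tg-38 mice overlapped those of 147.9, 137.4 and 129.4 in wild type mice. After normalization it was at least 1.19-fold higher in Tg-38, with an adjusted p of 0.183 in limma.

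Of 22 cyclins, Cdks and pocket proteins, 18 were tested, 0 had an unadjusted p under 0.05 by their brightest probe, and the median was 0.04. Rb1, the retinoblastoma protein, had a log2 change of -0.28 (SE 0.12, adjusted p 0.304), Ccnd1 of 0.28 (adjusted p 0.437) and E2f2 of -0.16 (adjusted p 0.494). A dim probe of the Rb1 relative Rbl1 was called as lower, with signals of 121.9 to 135 in Tg-38 mice, where it was not detected, against 146.3 to 174.7 in wild type mice. It passed the detection filter only through the 3 wild type arrays, the group where it was higher. The dim probe was at least 1.39-fold lower in Tg-38 (adjusted p 0.0476 in limma), while the brightest Rbl1 probe had a log2 change of -0.05 (adjusted p 0.861). The dim probe lost its call when any 1 array was left out (adjusted p 0.0677 without wild type replicate 2 to 0.157 without wild type replicate 1).

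Of 13 genes of p27 turnover and Foxo control, 9 were tested, of which 0 were higher and 1 lower by the unadjusted p, with a median of -0.01. The importin Kpna1 had a log2 change of -0.39 (SE 0.12, adjusted p 0.163), and the p27 ligase subunits Cul1 and Skp2 had 0.16 and 0.13. Of 8 relatives and partners of Ccng1, 7 were tested, of which 0 were higher and 1, Ccng2, lower by the unadjusted p, and the median was -0.15. Ccng2, the second cyclin G and a Foxo target, had signals of 1096.3, 902.2 and 992.7 in Tg-38 mice, against 2030.3, 1673.6 and 1133.4 in wild type mice. The groups did not overlap, and the log2 change was -0.45 (SE 0.16, adjusted p 0.202). Ppp2r5d, a regulatory subunit of PP2A, had -0.18 (adjusted p 0.466).

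The 3 genes whose profile over the 6 arrays was nearest to that of the called Gadd45a probe were found by the root mean square difference of centred log2 values, over 15398 probes of other genes. They were Slc7a11 (0.0632), the cystine carrier of glutathione synthesis, Chd2 (0.0826), a chromatin remodeller, and 2510009E07Rik (0.0873). Slc7a11 fell with a log2 change of -0.72 (adjusted p 0.0444). Its call was kept without wild type replicate 2 (adjusted p 0.0466) and ended without any other array (adjusted p 0.0791, without Tg-38 replicate 2, to 0.158, without Tg-38 replicate 1). Chd2 had -0.65 (adjusted p 0.0845) and 2510009E07Rik also -0.65 (adjusted p 0.0547). This is a likeness in 6 arrays from the same contrast.

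The summed markers of several thymic cell types lay apart between the groups. The summed normalized level of the DP list (11 of 14 genes tested) was 42704 to 44823 in Tg-38 mice and 48558 to 49766 in wild type mice, with 0 genes called higher and 1, the survival gene Bcl2l1, lower. Of the CD4-CD8- list (9 of 10 tested), sums were 1841 to 2021 in Tg-38 and 1684 to 1752 in wild type, with no gene called. The mature single-positive list (8 of 10 tested) summed to 4511 to 5767 in Tg-38 mice and 2997 to 3402 in wild type mice, with Il7r, Itgb7 and Dapl1 called as higher. Dapl1 was not detected on any wild type array. Klf2 (0.51) and Ms4a4b (1.04) lay apart after normalization but were not called. The groups overlapped for Ccr7 (0.38), Ms4a6b (0.66) and Foxo1 (-0.03), and S1pr1 was not detected on any array. The mature sum was thus higher, and the DP sum lower, in every Tg-38 mouse than in any wild type mouse. A sum of linear values follows its brightest genes. Cd8b1, the brightest of the DP list, had a log2 change of -0.13 (adjusted p 0.564 in limma). Of the 11 tested DP genes 9 had a change below 0, among them Dntt at -0.0002, while Ptcra (0.31) and Cd1d1 (0.04) lay above 0. For dividing cells (16 of 20 tested) the sums overlapped, at 32342 to 34119 in Tg-38 and 30552 to 38263 in wild type, and no gene was called.

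Sums for other cells of the organ also lay apart. They were 3908 to 4726 in Tg-38 and 2525 to 3078 in wild type for cytotoxic lymphocytes and NK cells (6 of 10 tested). In that list Klrd1 (log2 change 2.16, adjusted p 0.00151), Nkg7 (1.16, adjusted p 0.0287) and Ccl4 (1.25, adjusted p 0.0181) were called as higher. The other tested genes, Klrb1c (0.03), Prf1 (0.17) and Ccl5 (0.12), had overlapping groups. Ncr1 and Gzmb were not detected on any array, and no probe of Klrk1 passed the detection filter. For macrophages and dendritic cells the sums were 3076 to 3233 in Tg-38 and 1956 to 2239 in wild type (8 of 13 tested, 1 called higher, the costimulator Cd86). Lyz2 (0.65), the brightest of this list, Csf1r (0.48), Mertk (0.51) and C1qb (0.44) lay apart after normalization but were not called. The groups overlapped for Adgre1 (0.38), C1qa (-0.08) and Siglech (-0.01), and no probe of Itgax, Flt3 or Xcr1 passed the detection filter. Thymic epithelium gave 1739 to 2102 in Tg-38 and 1095 to 1690 in wild type (8 of 11 tested), although Epcam and Foxn1 were not detected on any array. Erythroid genes (2 of 5 tested) ran the other way, at 3846 to 9468 in Tg-38 and 10955 to 25544 in wild type. B lymphocyte genes gave 367 to 463 in Tg-38 and 543 to 710 in wild type from 1 tested gene of 6, Cd79b, with Ms4a1 and Pax5 not detected. Fibroblast, vessel and smooth muscle genes (4 of 11 tested) gave 572 to 597 in Tg-38 and 485 to 537 in wild type. Of these 4, the smooth muscle actin Acta2 was called as higher (log2 change 1.38, adjusted p 0.0442), while Pdgfrb (0.19), Cdh5 (-0.05) and Pecam1 (-0.13) had overlapping groups. Acta2 has 6 probes, of which only 1 was tested, and no probe of Tagln or Myh11 passed the detection filter. Of the 9 marker genes called by their brightest probe in all lists, Klrd1 and Dapl1 kept the call whichever array was left out, and each of the others kept it in only 1 or 2 of the 6 cases (adjusted p up to 0.153). Dapl1 was detected on 3 Tg-38 arrays and 0 wild type arrays, so it was tested only through the group where it was higher. The fits with 1 array left out kept the same 18352 probes and cannot bear on that choice. The part of these cell types in the values of Gadd45a, Cdkn1a and Cdkn1b was not tested.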

How the data were processed

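Gene expression was measured in whole thymus RNA of 3 Tg-38 and 3 wild type mice. Read-out by the authors used GenomeStudio (version not given in the sources used here). The deposited scanner table holds a linear intensity per probe and array, not normalized between arrays, and a detection p-value against negative controls. A second deposited table of the authors' processed intensity values, whose method is not given in the sources used here, served as an alternative only. The array carries no counts, so the number of mice limits the precision, and the labels give no batch or collection day.

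From the scanner values, background was removed by neqc (offset 16), which uses the detection p-values, followed by quantile normalization. The packages were limma 3.58.1 and statmod 1.5.0, run in R 4.3.3. A probe entered the fit when its detection p was under 0.05 on 3 or more of the 6 arrays, which 18352 of 45281 probes met. The contrast Tg-38 minus wild type was fitted by lmFit and eBayes, two-sided and with no block (residual degrees of freedom 4, prior 4.93), and p was adjusted by Benjamini-Hochberg over those probes. Of all probes, 34885 are annotated with 1 gene, 18 with several and 10378 with none. Symbols of 34807 were updated by gene ID. A probe not detected in a group gave a bound against the detection level.

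The 10 members and the 235 different list genes (19 without a probe) were chosen with earlier results of these data known. Genes named are all members, called genes, the 3 smallest p-values per pathway list, and the 3 profiles nearest to a called member. Plk3, Ddb2, Bcl6, Phlda3 and Cdkn2b were named after their values were seen. The called marker genes and the other marker genes given with a change were likewise chosen with their values in view. Alternatives covered background correction, scaling, detection filter, the authors' values, intensity trend, weights per array, a block on the replicate number, the methods' t-test and dropping each array. The procedure was tested on simulated data. Figures were drawn with matplotlib 3.10.9. The study's cytometry and stress experiments are not analysed here.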

Additional observations from a re-analysis of the deposited data

How the results depend on the processing

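The number of member probes called was 1, and it was 2, both Gadd45a probes, without background correction, with normexp, with median scaling, with the authors' processed values, with an intensity trend and with array weights. It was 3 on unnormalized scanner signals, where Ccng1 probe 1 was added, and 0 without the detection filter, with the replicate block, with the methods' t-test and in all 6 analyses that left out 1 array (0 to 0). It stayed at 1 when detection on all 6 arrays was required. No called value changed sign under any of the 17 alternatives. Gadd45a probe 2 had an adjusted p of 0.103 without the detection filter and 0.204 with the methods' t-test.

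Over all probes, 202 were called, 72.8% of them higher. The count was 397 without background correction, 459 with normexp (60.6% higher), 445 with the authors' values (57.5% higher), 481 with an intensity trend (61.1% higher) and 787 on unnormalized signals (5.84% higher). Median scaling gave 220 calls, of which 35.9% were higher. Without the detection filter 48 probes were called, and the methods' t-test called 1 after adjustment and 2692 at an unadjusted p under 0.05, among them 1 higher and 6 lower member probes. Leaving out 1 array gave 20 to 275 calls, with 275 without wild type replicate 2 and at most 65 without any other array.

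Of the pathway genes, 0 were called by their brightest probe. This became 3 without background correction, with normexp, with the authors' values and with an intensity trend, 1 with median scaling, 1 with array weights and 8 on unnormalized signals. Leaving out 1 array gave 0 to 2, the 2 being Dram1 and Trp63 without wild type replicate 2.

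The labels do not say that the replicate numbers pair the samples. Same-numbered mice had correlations of 0.03, -0.12 and -0.10 between their deviations from the group means. Differently numbered mice had -0.12 to 0.19. With 3 mice per group these correlations cannot decide whether the numbers pair the samples. With the replicate number as a block, 27 probes were called in all, 0 of them member probes and 0 pathway genes, and Gadd45a probe 2 had an adjusted p of 0.134. Dim probes (Cdkn1a probe 3, Cdkn1b probe 2, Cdkn2c probe 3) were not detected on every array, and signal over background limits what they can show.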
